A study of Sorghum bicolor with 12 samples.

Results

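The comparison described here sets leaves of the sorghum cultivar Jinliang 5 (JL) against leaves of the cultivar Sanchisan (SCS), with both cultivars under drought stress. Its members are the 3 JL drought and the 3 SCS drought libraries, which are 6 of the 12 RNA-seq libraries of the study, chosen by their labels alone. The other 6 libraries are 3 of each cultivar under normal water supply, called control here. They show where the drought difference stands apart. They also entered the filter on low counts, the scaling and the shared estimate of spread behind the drought calls. All 12 libraries came from Sorghum bicolor leaves. The labels give no plant age, no length or severity of the drought and no origin of the replicate libraries, so the p-values below measure the spread between libraries, which may be partly technical. The study asked how 2 contrasting cultivars respond to drought.

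Sorghum is a C4 grass. Its leaf mesophyll cells fix bicarbonate with phosphoenolpyruvate carboxylase, and its bundle sheath cells release the carbon again with NADP-dependent malic enzyme and pass it to Rubisco and the Calvin cycle. Plant tissue that loses water is known to accumulate late embryogenesis abundant (LEA) proteins, dehydrins, heat shock proteins, proline and raffinose, while genes of photosynthesis are commonly turned down. Many of the protective genes respond to abscisic acid, the hormone of water stress, and many are also used by maturing seeds.

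The 12 libraries held 15039990 to 18356604 counts in all, and the 6 drought libraries 15039990 to 16072003. Levels are given as CPM, the counts of a gene relative to the library's total scaled by edgeR's TMM factor, with the values of the JL drought libraries 1, 2 and 3 before those of the SCS drought libraries 1, 2 and 3. A gene is called when its Benjamini-Hochberg adjusted p in edgeR's quasi-likelihood test is below 0.05 over the 20873 genes tested, and a log2 fold change above 0 means higher in JL. By description 24 genes matched the mesophyll markers, and 17 of them passed the filter on low counts. The summed level of the 17 was 63270 to 89670 CPM in JL drought, 2910 to 10080 CPM in SCS drought and 19250 to 85900 CPM in the control libraries. Most of that sum came from phosphoenolpyruvate carboxylase 3 and 1 carbonic anhydrase, described below. Of the 17 matched genes 6 were called higher in JL and 1 in SCS, at a median log2 difference of 0.71. The match took in mitochondrial gamma carbonic anhydrases and a housekeeping phosphoenolpyruvate carboxylase, and it left out pyruvate, phosphate dikinase. Those counts and that median therefore describe the matched gene families rather than mesophyll markers alone. All 10 bundle sheath matches passed, with sums of 16940 to 27140 CPM in JL drought and 3272 to 5355 CPM in SCS drought. Of them 5 were called higher in JL and 2 in SCS, both malic enzymes described below as paralogs. Of 29 tested guard cell and epidermis markers 8 were called higher in JL and 0 in SCS, with sums of 1256 to 2079 CPM and 736.4 to 1039 CPM and a median log2 difference of 1.55. The 8 were 3-ketoacyl-CoA synthases and ROC homeobox genes. The guard cell channel SLAC1 (edgeR adjusted p = 0.127) and stomatal closure-related actin-binding proteins (0.267, 0.607 and 0.334) were not called. Phloem and vascular, dividing cell and root markers had medians of 0.115, -0.447 and 0.423. For comparison, 11.2% of all tested genes were called higher in JL and 7.55% in SCS. The part of these cell types in the results below was not tested. No tested marker of these types was at 0 in all drought libraries. Each cultivar had reads on a gene that was at 0 in the other: ATP-dependent DNA helicase PIF1 (LOC8155712) had 0 counts in all JL libraries and 6.86 to 15.5 CPM in the SCS libraries, and LOC8054464, uncharacterized, had 0 counts in all SCS libraries and 4.54 to 60.8 CPM in the JL libraries. Those 2 genes were chosen after their values were seen. In these bulk leaf samples, fewer cells of a type and less RNA per cell cannot be told apart.

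The drought leaves of the 2 cultivars differed in 3916 of 20873 tested genes, which is 18.8%. Of these, 2341 genes were higher in JL (11.2% of all tested genes) and 1575 were higher in SCS (7.55%). Photosynthesis, plastid ribosome and chlorophyll synthesis genes made up the groups with the largest shares called higher in JL, and LEA proteins, cytosolic ribosomal proteins, heat shock proteins and proline synthesis genes had the largest shares called higher in SCS. The difference was at least 2-fold for 3640 of the called genes. It was at least 8-fold for 745 genes higher in JL and for 428 higher in SCS. At an unadjusted p below 0.05, 7122 genes (34.1%) differed. The drought libraries of the cultivars did not overlap at all for 3801 of the called genes, which is 97.1%, against 32.8% of all tested genes. The calls rest on the same libraries, so this share describes the called genes and adds no separate evidence.

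**Figure D1:**
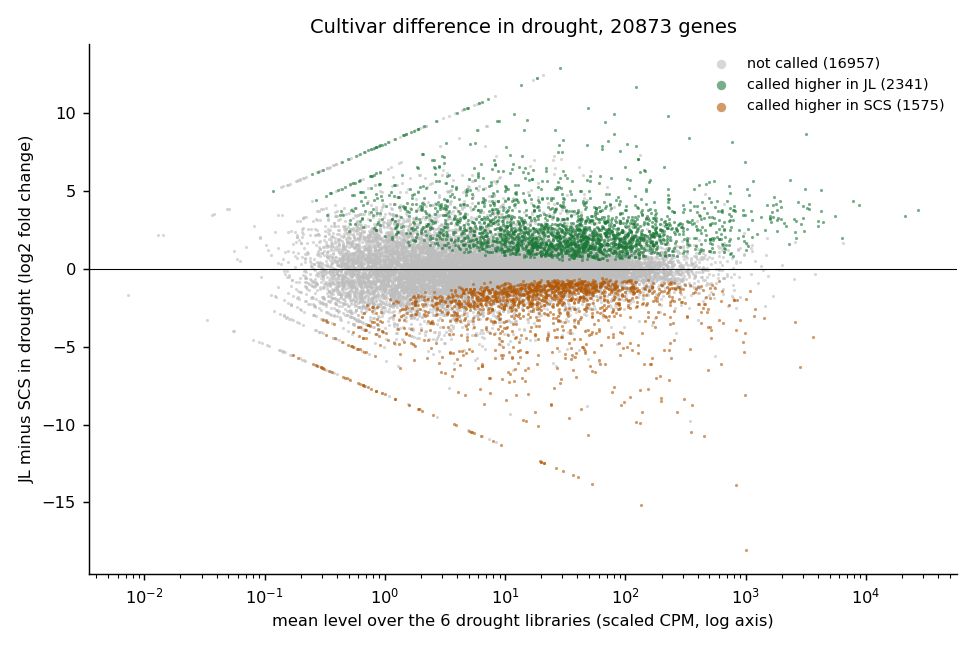
Each point is 1 of the 20873 tested genes, with its mean level over the 6 drought libraries in scaled CPM on a log axis and its JL minus SCS log2 fold change in drought. The 2341 genes called higher in JL and the 1575 called higher in SCS lie on both sides at nearly all levels. The straight rows of points at low levels are genes with few or no counts in 1 cultivar, whose fitted fold change depends on the prior count.

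The genes called higher in JL took 49.1 to 56.1% of the scaled counts of the JL drought libraries and 11 to 13.6% of those of the SCS drought libraries. Genes called higher in SCS took 16.5 to 23.5% in SCS drought and 2.81 to 2.92% in JL drought. The JL libraries were also more concentrated: the 100 most abundant genes of a library held 35.7% ± 3.43 (SD, n = 3) of its counts in JL drought and 19% ± 3.51 (SD, n = 3) in SCS drought. The libraries did not overlap, and the exact two-sided permutation test gave p = 0.1, the smallest value that 3 against 3 libraries allow. This difference in composition bears on the scaling. With library totals alone in place of TMM factors the median of all genes moved from 0.03 to -0.60 on the log2 scale, and the calls changed from 2341 higher in JL and 1575 higher in SCS to 1440 and 4308. Leaving out SCS drought library 1 lowered the count of called genes to 1864, of which 1829 were among the 3916, and the fit on the 6 drought libraries alone gave 986.

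**Figure D2:**
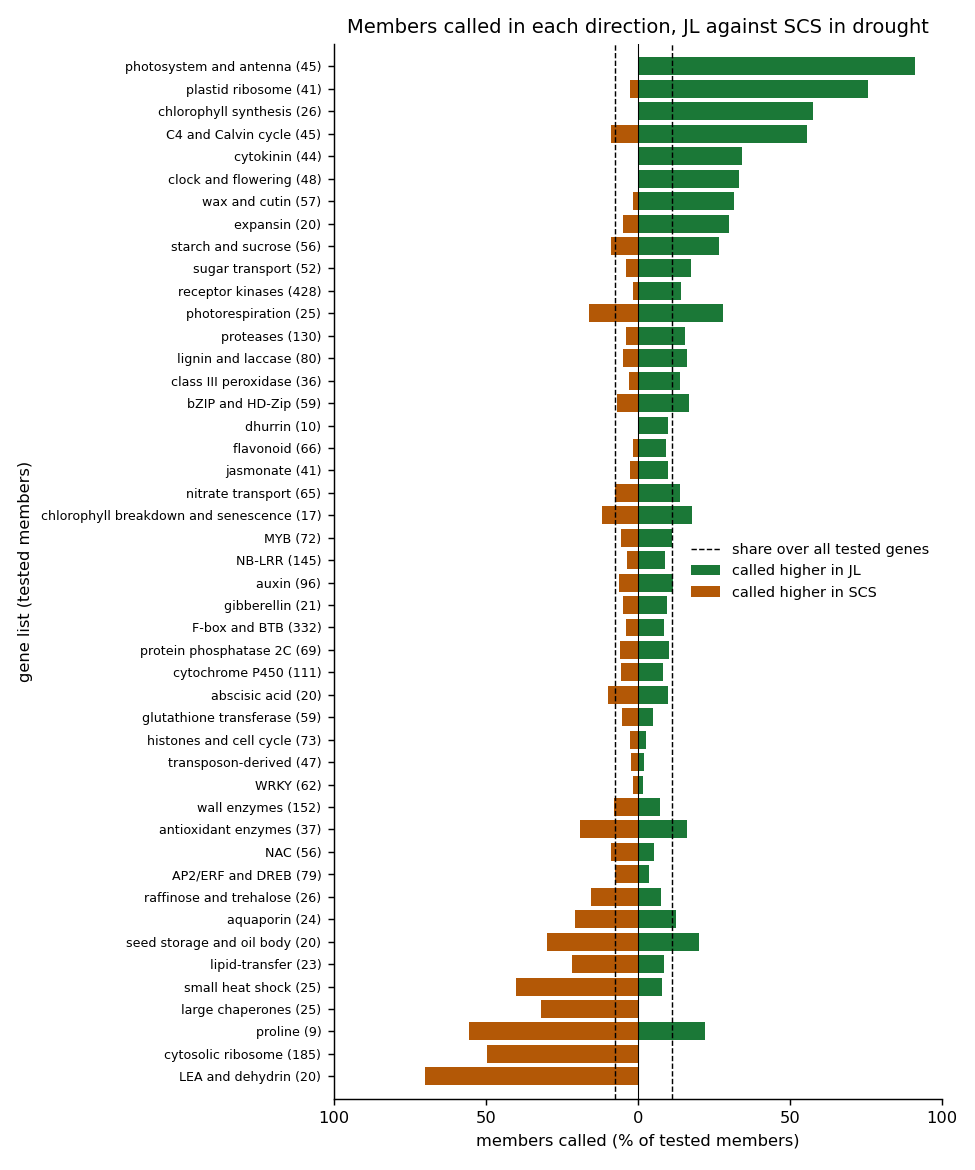
Bars show, for each of 46 gene lists, the share of its tested members called higher in JL (green, to the right) or in SCS (orange, to the left). The dashed lines mark the shares over all tested genes, 11.2% and 7.55%. Photosystem and antenna genes stand at the top with 41 of 45 called higher in JL, and LEA and dehydrin genes at the bottom with 14 of 20 called higher in SCS.

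Photosynthesis genes were higher in JL. Of 45 tested genes of the photosystems, the cytochrome complex and the light-harvesting antenna, 41 were called higher in JL and 0 in SCS, and the list's median log2 fold change was 3.43, against 0.03 over all tested genes. The summed level of the list was 94720 to 224600 CPM in JL drought and 7465 to 24260 CPM in SCS drought. In control, where no member was called, the list's median was 1.69. Chlorophyll a-b binding protein 5 (LOC8062994), an antenna protein, stood at 13510, 22240 and 9220 CPM in JL and at 418, 1529 and 227 CPM in SCS, with a log2 fold change of 4.37 ± 0.90 (SE) and an adjusted p of 0.00985 in edgeR's test. LHCII type 1 (LOC8082496), a member of the main antenna of photosystem II, was at 7502, 7773 and 3777 CPM in JL and at 6.49, 11.2 and 27.9 CPM in SCS. Its log2 fold change of 8.71 ± 1.15 was the highest of the list (edgeR adjusted p = 0.00176). Photosystem II 5 kDa protein (LOC8070565) was at 1152, 1391 and 755 CPM in JL and at 63.8, 41.4 and 57.2 CPM in SCS. In each of these 3 genes the lowest JL library lay far above the highest SCS library. The member that lay lowest, photosystem II 10 kDa polypeptide (LOC8079922), was not called: it had 1.02, 1.63 and 31.7 CPM in JL and 38.1, 17.1 and 36.1 CPM in SCS. Antenna genes form families of near-identical copies, so the split of reads between copies is uncertain.

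The C4 and Calvin cycle enzymes divided into 25 members called higher in JL and 4 called higher in SCS, of 45 tested, at a median log2 difference of 2.37 in drought and 0.80 in control. The 5 called genes with the highest mean CPM in drought on the JL side included 4 enzymes of the C4 cycle. Phosphoenolpyruvate carboxylase 3 (LOC8058886), which makes the first C4 acid, had 43510, 62110 and 45870 CPM in JL and 2797, 6962 and 1388 CPM in SCS, a log2 fold change of 3.76 ± 0.77 (edgeR adjusted p = 0.00934). Pyruvate, phosphate dikinase 1 (LOC110430571), which restores the acceptor for that step, had 34990, 33170 and 48090 CPM in JL and 4754, 3983 and 2185 CPM in SCS. Carbonic anhydrase (LOC110433917), which supplies bicarbonate, was at 13870, 19630 and 16250 CPM in JL and 923, 1832 and 138 CPM in SCS. All 3 genes of the mesophyll step thus separated the cultivars without overlap, by log2 fold changes of 3.41 to 4.10. Chloroplastic NADP-dependent malic enzyme (LOC8078737) had 7316, 11880 and 11060 CPM in JL and 2507, 3566 and 1444 CPM in SCS. Its difference, 2.01 ± 0.51 with an edgeR adjusted p of 0.0221, lost its call without SCS drought library 1 (adjusted p = 0.0739), SCS drought library 3 (0.0611) or JL drought library 3 (0.0517).

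Calvin cycle genes gave some of the smallest p-values. Chloroplastic fructose-bisphosphate aldolase (LOC8073648) had 1836, 1382 and 2715 CPM in JL and 13.9, 22.5 and 13.0 CPM in SCS, a log2 fold change of 6.91 ± 0.55 with an edgeR adjusted p of 0.00055. The A subunit of chloroplastic glyceraldehyde-3-phosphate dehydrogenase (LOC110436299) was at 5879, 8403 and 4009 CPM in JL and at 154, 216 and 159 CPM in SCS. The Rubisco small chain (LOC8070647) stood at 5990, 10270 and 2685 CPM in JL and at 223, 248 and 593 CPM in SCS. In these genes too every JL library was above every SCS library.

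The 4 members called higher in SCS were paralogs of these enzymes. A second NADP-dependent malic enzyme (LOC8075558) was at 0.0781, 1.20 and 0.22 CPM in JL and at 1272, 573 and 264 CPM in SCS, a log2 fold change of -10.47 ± 1.25 (edgeR adjusted p = 0.00149). A chloroplastic transketolase (LOC8085774) had 0, 0.599 and 0 CPM in JL and 13.8, 52.9 and 21.2 CPM in SCS. Phosphoenolpyruvate carboxylase 2 (LOC8065472) had 45.2, 73.8 and 43.9 CPM in JL and 358, 239 and 151 CPM in SCS. The fourth was a malic enzyme labelled chloroplastic (LOC8084718), with 250, 194 and 303 CPM in JL and 744, 501 and 419 CPM in SCS, whose call was lost without JL drought library 1, JL drought library 2 or SCS drought library 1 (edgeR adjusted p = 0.0626 to 0.0991). For all 4 the highest JL library lay below the lowest SCS library.

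Both other plastid groups followed the same direction. Of 41 tested genes of the plastid ribosome, 31 were called higher in JL and 1 in SCS, at a median log2 difference of 2.41 in drought and 0.30 in control. Plastid ribosomal protein S21 (LOC8079435) was at 199, 420 and 218 CPM in JL and at 29.7, 23.6 and 25.1 CPM in SCS, a log2 fold change of 3.42 ± 0.40 (edgeR adjusted p = 0.0014). JL drought library 2 was the highest for the group's summed level, at 14800 CPM against 4196 to 5010 CPM in the other JL drought libraries and 2005 to 2619 CPM in SCS drought. Chlorophyll synthesis gave 15 members called higher in JL and 0 in SCS of 26, with a median of 2.47. Glutamyl-tRNA reductase (LOC8079551), at the entry to tetrapyrrole synthesis, was at 1756, 2820 and 1441 CPM in JL and at 31.6, 99.4 and 36.1 CPM in SCS. Chlorophyllide a oxygenase (LOC8077402), which makes chlorophyll b, was at 709, 626 and 704 CPM in JL and at 117, 118 and 102 CPM in SCS. Without SCS drought library 1, the counts called higher in JL were 16 for the plastid ribosome and 7 for chlorophyll synthesis. For chlorophyll synthesis, 8 members were called without JL drought library 2 and 8 without SCS drought library 3. Among the genes the plastid genome itself encodes, 13 of 61 (21.3%) were called higher in JL and 0 in SCS. Of all tested genes, 11.2% were called higher in JL and 18.8% in either direction.

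Chlorophyll breakdown did not go one way, with 3 members called higher in JL and 2 in SCS of 17. STAY-GREEN (LOC8054896), the enzyme that starts chlorophyll breakdown, had 60.3, 8.21 and 7.76 CPM in JL and 474, 71.5 and 445 CPM in SCS, a log2 fold change of -3.70 ± 1.04 (edgeR adjusted p = 0.0339) that lost its call without JL drought library 2, JL drought library 3, SCS drought library 1, SCS drought library 3 or SCS control library 1 (adjusted p = 0.0504 to 0.0889). The protein STAY-GREEN LIKE (LOC8073690) differed the other way, with 148, 114 and 120 CPM in JL and 8.23, 4.26 and 6.49 CPM in SCS. The cysteine protease SAG39 (LOC8086230), named after a senescence gene of rice, had 975, 180 and 207 CPM in JL and 0.784, 0.101 and 0.574 CPM in SCS. That protease was also at 298 to 652 CPM in JL control and 51.5 to 292 CPM in SCS control, so SCS drought was the group that stood apart. Of 25 photorespiration genes 7 were called higher in JL and 4 in SCS, or 4 and 1 without SCS drought library 1. Those higher in JL included D-glycerate 3-kinase (LOC8066598), the last enzyme of the pathway, with 234, 337 and 197 CPM in JL and 38.4, 36.7 and 19 CPM in SCS.

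**Figure D3:**
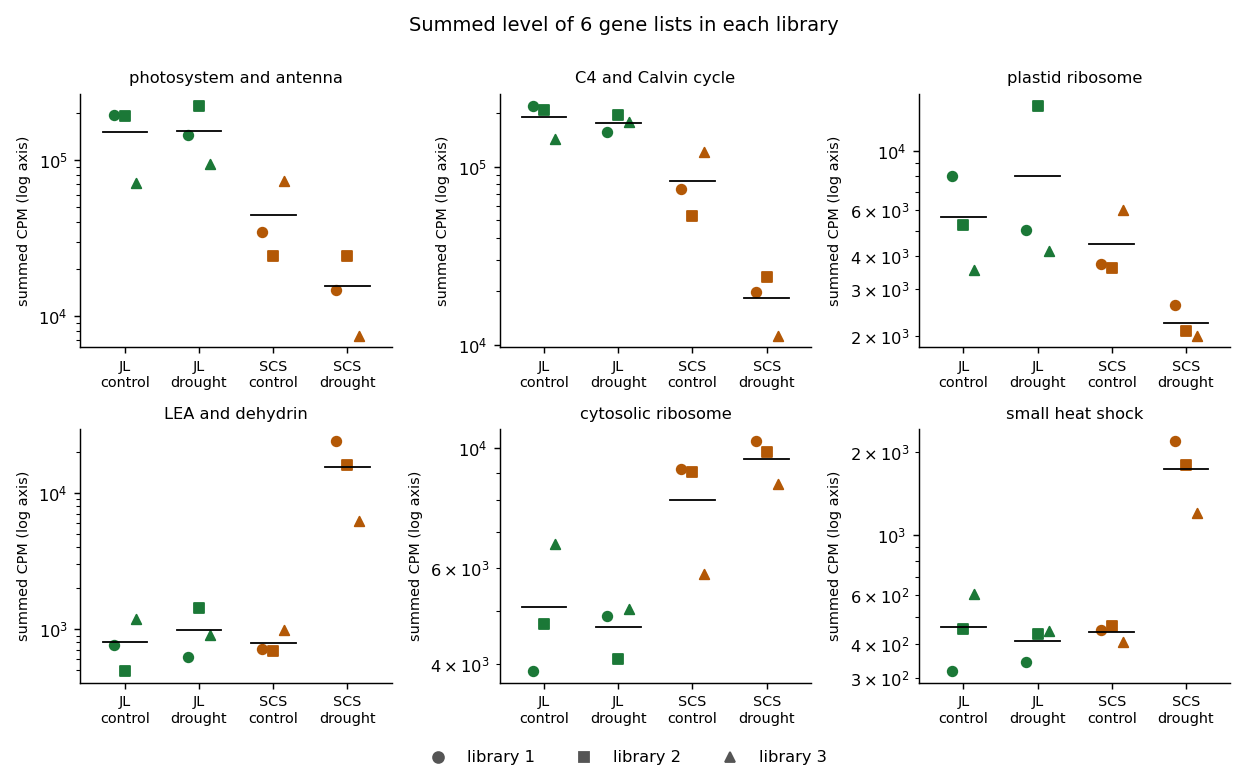
Points show the summed CPM of 6 gene lists in each of the 12 libraries on a log axis, with a different shape for each library number and a line at the group mean. JL drought and JL control lie close together for most lists. SCS drought stands apart for LEA and dehydrin genes, at 6269 to 24170 CPM against 492 to 1428 CPM in all other libraries.

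LEA proteins and dehydrins were higher in SCS. Of 20 tested members 14 were called higher in SCS and 0 in JL, the median log2 fold change was -7.34 in drought and 0.17 in control, and all 20 fold changes pointed to SCS in drought. The summed level was 622 to 1428 CPM in JL drought and 6269 to 24170 CPM in SCS drought, lowest in SCS drought library 3. LEA group 3-like (LOC110430243) had 0 counts in all 3 JL drought libraries and 3490, 2045 and 568 CPM in SCS, which makes it at least 24383-fold higher in SCS when JL is set to 3 counts over the group. That bound ranged from 15962-fold to 34726-fold without 1 of the SCS libraries. ABA-inducible protein PHV A1 (LOC8059830) had 0.313, 0 and 0 CPM in JL and 2445, 1756 and 789 CPM in SCS (edgeR adjusted p = 0.00139). Late embryogenesis abundant protein 1 (LOC8055903) had 0.469, 0.342 and 0 CPM in JL and 399, 142 and 197 CPM in SCS, a log2 fold change of -9.81 ± 0.96 (edgeR adjusted p = 0.00115). For these 3 genes the JL drought libraries were at or near 0, as were the control libraries of both cultivars, which reached at most 4.50 CPM.

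Dehydrins, LEA proteins that bind membranes and other proteins, were less uniform. DHN1 (LOC8077913) had 4.14, 203 and 1.10 CPM in JL and 8399, 7079 and 1221 CPM in SCS, and its log2 fold change of -6.32 ± 1.96 was called with an adjusted p of 0.0474 in edgeR's test. JL drought library 2 stood far above the other JL libraries for this gene. The call was lost without any 1 of the drought libraries but JL drought 2, with edgeR adjusted p from 0.0504 without SCS drought library 3 to 0.1 without SCS drought library 1, and also without most single control libraries. COR410 (LOC8073921) had 74.2, 129 and 5.93 CPM in JL and 2704, 1655 and 1114 CPM in SCS. HIRD11 (LOC8057216) differed least of the called members, with 429, 718 and 632 CPM in JL and 2342, 899 and 1564 CPM in SCS. CS66 (LOC8071330) was not called, with 0, 2.40 and 0 CPM in JL and 1060, 992 and 2.60 CPM in SCS. Its edgeR adjusted p was 0.0519 with all libraries and 0.0238 without SCS drought library 3, the SCS library near the JL level. The call of COR410 was lost without SCS drought library 1 (adjusted p = 0.0535), and that of HIRD11 without any 1 drought library but SCS drought 2 (adjusted p = 0.0536 to 0.133) and without JL control library 1 or SCS control library 1 (0.0518 and 0.0566).

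Seed storage and oil body genes were called in both directions. Among 20 storage protein and oil body genes 6 were called higher in SCS and 4 in JL, or 3 and 2 without JL drought library 1 or SCS drought library 1, at a median log2 difference of -1.39. The summed level of this list overlapped between cultivars, at 883.5 to 1205 CPM in JL drought and 722 to 1692 CPM in SCS drought. The called shares were 30% toward SCS and 20% toward JL, against 7.55% and 11.2% of all tested genes. The vicilin-like protein (LOC8081885) had 0 counts in JL drought and 125, 109 and 5.96 CPM in SCS, at least 955-fold higher in SCS, and oil body-associated protein 2B (LOC8069824) had 0 counts in JL and 92.0, 10.8 and 15.2 CPM in SCS. Both were far higher in some SCS libraries than in others, and their bounds fell to 686-fold and 167-fold without SCS drought library 1. The 4 members called higher in JL were all peroxygenases, enzymes of oil bodies that also act on oxidized lipids in leaves. Of 38 seed markers matched by description 8 passed the filter, with 3 called higher in SCS and 0 in JL at a median log2 difference of -2.4. Their summed level was 25.5 to 250.6 CPM in JL drought and 266.9 to 1015 CPM in SCS drought. Much of the SCS sum came from basic 7S globulin (LOC8076348) and an oleosin 1 (LOC8059544), which were not called. These had means of 317 and 117 CPM in SCS drought and 96.6 and 13.7 CPM in JL drought. The part of the seed markers in the LEA result was not tested.

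Proline synthesis was called higher in SCS at several steps, while a transporter was higher in JL: 5 of 9 tested members were called higher in SCS and 2 in JL. Delta-1-pyrroline-5-carboxylate synthase 2 (LOC110433516), which carries out the controlling step of synthesis from glutamate, had 99.6, 27.3 and 198 CPM in JL and 2601, 936 and 2031 CPM in SCS, a log2 fold change of -4.10 ± 0.75 (edgeR adjusted p = 0.00602). Ornithine aminotransferase (LOC8062211), which feeds the pathway from ornithine, had 27.5, 41.6 and 29.1 CPM in JL and 193, 152 and 190 CPM in SCS. Proline transporter 1 (LOC8078705) had 88.9, 57.7 and 153 CPM in JL and 0.952, 0.760 and 2.96 CPM in SCS, a log2 fold change of 5.99 ± 0.71 (edgeR adjusted p = 0.00146). None of these genes overlapped between cultivars. Another synthase copy (LOC8072535) was higher in JL, at 19, 104 and 25.1 CPM against 8.34, 13.9 and 5.65 CPM, but lost its call without JL drought library 2 or any 1 SCS drought library (edgeR adjusted p = 0.0616 to 0.188) and without most single control libraries, and proline dehydrogenase 2 (LOC8058116), which breaks proline down, was not called (adjusted p = 0.501).

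Of 26 raffinose and trehalose genes 4 were called higher in SCS and 2 in JL, and the split was 7 and 2 without JL drought library 2 and 10 and 1 with library totals alone. The called share was 23.1%, near the 18.8% of all tested genes. Toward SCS and JL the shares were 15.4% and 7.69%, against 7.55% and 11.2% of all tested genes. A raffinose synthase of the galactinol-sucrose galactosyltransferase family (LOC8078430) was the called SCS gene with the highest mean CPM in drought, with 161, 502 and 355 CPM in JL and 6186, 12080 and 2430 CPM in SCS (log2 fold change -4.34 ± 0.71, edgeR adjusted p = 0.00387). Trehalose-phosphate synthase (LOC8055769) had 23.2, 27.5 and 24.7 CPM in JL and 149, 114 and 186 CPM in SCS. Sucrose synthase 4 (LOC8082319), which splits sucrose, had 21.2, 16.8 and 11.9 CPM in JL and 645, 274 and 439 CPM in SCS, a log2 fold change of -4.77 ± 0.48 (edgeR adjusted p = 0.00118). The cultivars did not overlap in any of the 3. The starch and sucrose list as a whole had 15 members called higher in JL and 5 in SCS of 56, or 9 and 2 without SCS drought library 1, among them soluble starch synthase 2-2 (LOC8066439) with 251, 347 and 159 CPM in JL and 18.2, 37.2 and 10.2 CPM in SCS.

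Chaperones were higher in SCS where they were called, with few exceptions. Of 25 small heat shock proteins, which hold unfolding proteins, 10 were called higher in SCS and 2 in JL, at a median log2 difference of -2.88 in drought and -0.04 in control. A 16.9 kDa class I protein (LOC8073342) had 1.49, 21.2 and 4.47 CPM in JL and 539, 464 and 405 CPM in SCS. The 21.9 kDa protein (LOC8076920) had 0 counts in JL and 95.3, 84.3 and 3.84 CPM in SCS, at least 729-fold higher in SCS and at least 525-fold without SCS drought library 1. The 2 exceptions, at 18.9 kDa (LOC8055079) and 17.9 kDa (LOC8073344), were higher in JL by 2.13 and 2.37 on the log2 scale, and the former lost its call without SCS drought library 1 (edgeR adjusted p = 0.0529). Of 25 HSP70, HSP90 and HSP101 genes, 8 were called higher in SCS and 0 in JL. HSP70 protein 8 (LOC8085292) had 2.73, 9.5 and 5.56 CPM in JL and 266, 326 and 71.4 CPM in SCS, a log2 fold change of -5.22 ± 0.68 (edgeR adjusted p = 0.00172). The constitutive-type heat shock cognate 70 kDa protein 2 (LOC8084930) was not called and lay the other way, with 2390, 399 and 2258 CPM in JL and 512, 380 and 806 CPM in SCS. It was called higher in JL without JL drought library 2 (edgeR adjusted p = 0.00816), the low JL library. Without SCS drought library 1, 3 of the large chaperones were called, and without SCS drought library 2, 4 were.

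**Figure D4:**
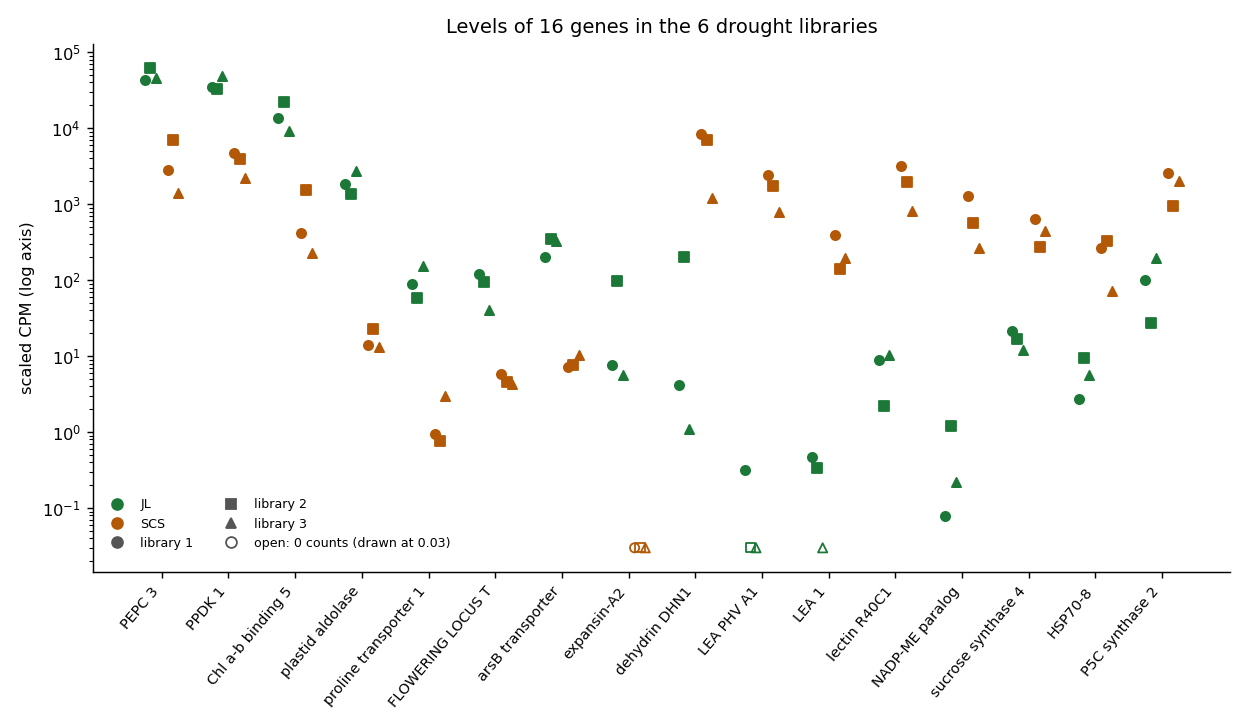
Points show the scaled CPM of 16 genes in the 6 drought libraries on a log axis, green for JL and orange for SCS, with open points for 0 counts. The first 8 genes are higher in all 3 JL libraries and the other 8 higher in all 3 SCS libraries. Expansin-A2 and dehydrin DHN1 show JL library 2 (square) far above the other JL libraries.

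Cytosolic ribosomal proteins shifted by a small amount in many genes. Of 185 tested members 92 (49.7%) were called higher in SCS and 0 in JL, against 7.55% and 11.2% of all tested genes. The median log2 fold change was -0.96 in drought and -0.63 in control. The drought libraries did not overlap for 148 members, with SCS higher in each. Among all tested genes 15.6% were separated in this way with SCS higher. The summed level was 4077 to 5046 CPM in JL drought and 8557 to 10290 CPM in SCS drought. Ribosomal protein L32-1 (LOC8062414) had 31.3, 24.6 and 26.9 CPM in JL and 102, 98.3 and 114 CPM in SCS, a log2 fold change of -1.93 ± 0.35 (edgeR adjusted p = 0.00561). One member stood apart by size: L10 (LOC8082350) had 0.938, 0 and 0.586 CPM in JL and 407, 102 and 73.6 CPM in SCS. The count of called members fell to 13 without SCS drought library 1, to 25 without JL drought library 2, to 38 without JL drought library 3, to 45 without JL drought library 1 and to 44 without SCS drought library 2, and the list's median, less that of all genes, was -1.10 to -0.85 in the fits that left out 1 drought library. A pair of other genes that act in translation was named for abundance or for the difference from control. The translation factor SUI1 homolog (LOC110432939), which helps select the start codon, had 244, 224 and 382 CPM in JL and 2097, 4052 and 1490 CPM in SCS. Peptide chain release factor subunit 1-2 (LOC8055826) had 1.64, 0.599 and 1.32 CPM in JL and 369, 250 and 178 CPM in SCS.

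Of 20 tested genes of the abscisic acid pathway 2 were called higher in JL and 2 in SCS, at a median log2 fold change of -0.30. The 4 called genes are 20% of the list, against 18.8% of all tested genes. The receptor PYL8 (LOC8078346) had 109, 131 and 215 CPM in JL and 36.3, 37.6 and 50.01 CPM in SCS, a log2 fold change of 1.88 ± 0.34 (edgeR adjusted p = 0.00569). Abscisic stress-ripening protein 1-like (LOC110429605), a stress protein induced by the hormone, had 259, 395 and 117 CPM in JL and 3012, 2662 and 590 CPM in SCS. The synthesis gene 9-cis-epoxycarotenoid dioxygenase 1 (LOC8062208) overlapped between cultivars, and was not called, with 44.0, 217 and 3.08 CPM in JL and 55.8, 98.3 and 52.8 CPM in SCS. Among 69 protein phosphatases 2C, a family that includes repressors of abscisic acid signalling, 7 were called higher in JL and 4 in SCS, or 3 and 1 without SCS drought library 1. Calls among AP2/ERF and DREB factors were 3 and 6 of 79, among NAC factors 3 and 5 of 56 and among WRKY factors 1 and 1 of 62. The called shares, 15.9% of the phosphatases, 11.4% of AP2/ERF and DREB, 14.3% of NAC and 3.23% of WRKY factors, were all below 18.8%. The 6 AP2/ERF and DREB factors higher in SCS became 0 without JL drought library 3 and 1 without SCS drought library 1, and the WRKY factors higher in JL became 5 without SCS drought library 3.

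Cytokinin and flowering genes were called only toward JL in the main test. Of 44 genes of cytokinin synthesis, breakdown and response 15 were called higher in JL and 0 in SCS, at a median log2 difference of 1.66 in drought and 0.20 in control. A phosphoribohydrolase that releases active cytokinin (LOC8067410) had 204, 420 and 152 CPM in JL and 11.3, 4.46 and 18.4 CPM in SCS, a log2 fold change of 4.50 ± 0.63 (edgeR adjusted p = 0.00209). The response regulator ORR2 (LOC8068884) had 18.1, 32.7 and 31.6 CPM in JL and 2.24, 0.709 and 4.46 CPM in SCS. The called members also included enzymes that degrade cytokinin, such as cytokinin dehydrogenase 3 (LOC8067400) with 9.14, 5.90 and 78.5 CPM in JL and 0.896, 1.37 and 1.85 CPM in SCS. Without SCS drought library 1, 6 of these 44 genes were called, without JL drought library 2, 8, and without SCS drought library 3, 9.

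Of 48 clock, photoreceptor and flowering genes 16 were called higher in JL and 0 in SCS. A FLOWERING LOCUS T gene (LOC8061952), one of the family whose proteins carry the flowering signal from leaf to shoot tip in other plants, had 122, 93.7 and 41.1 CPM in JL and 5.76, 4.56 and 4.28 CPM in SCS, a log2 fold change of 4.13 ± 0.46 (edgeR adjusted p = 0.00138). CONSTANS-LIKE 16 (LOC8062912) had 500, 877 and 754 CPM in JL and 111, 197 and 119 CPM in SCS. Both genes separated the cultivars without overlap, and in control FLOWERING LOCUS T stood at 74.2 to 157 CPM in JL and 29.5 to 51.6 CPM in SCS. The count of called genes in this list was 6 without SCS drought library 1 and 9 without JL drought library 3. With library totals alone as the scaling, 4 clock and flowering genes and 4 cytokinin genes were called higher in SCS, against 0 and 0.

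Of 428 receptor kinases 61 were called higher in JL and 7 in SCS, or 14.3% and 1.64% against 11.2% and 7.55% of all tested genes, at a median log2 difference of 0.86 in drought and -0.39 in control; without SCS drought library 1, 21 and 3 were called, and under library totals alone 32 and 18. Of 57 wax and cutin genes 18 were called higher in JL and 1 in SCS, or 9 and 0 without SCS drought library 1. Fatty acyl-CoA reductase 1 (LOC8057991), which makes the fatty alcohols of wax, had 18.3, 706 and 8.93 CPM in JL and 0, 0.152 and 0.0441 CPM in SCS, and its call was lost without SCS drought library 1 (edgeR adjusted p = 0.057) and with voom weights (0.203). Expansins, which loosen cell walls, had 6 members called higher in JL and 1 in SCS of 20. Expansin-A2 (LOC8085403) had 7.58, 97.5 and 5.56 CPM in JL and 0 counts in SCS, at least 691-fold higher in JL, or at least 131-fold without JL drought library 2. Both genes had their highest value in JL drought library 2, which was above the other JL libraries for expansins in sum too (924 CPM against 53.1 and 103.5). The expansins called higher in JL became 2 without SCS drought library 1. Of 10 dhurrin genes, which make and break sorghum's cyanogenic glucoside, 1 was called higher in JL, a hydroxymandelonitrile lyase-like gene (LOC110435343) with 38.5, 117 and 32.8 CPM in JL and 3.75, 6.94 and 13.3 CPM in SCS. The called share of the dhurrin list was 10%, below the 18.8% of all tested genes. Its median log2 difference was nearly the same in both conditions, at 2.35 in drought and 2.05 in control.

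Transport genes were called in both directions. The called shares were 33.3% of aquaporins, 21.5% of nitrate and peptide transporters and 30.4% of lipid carriers, against 18.8% of all tested genes. Of 24 aquaporins, the water channels, 3 were called higher in JL and 5 in SCS, and the 5 became 1 to 3 without any 1 drought library but SCS drought 3. PIP1-2 (LOC8076062), a channel of the plasma membrane, had 166, 622 and 246 CPM in JL and 2272, 3140 and 690 CPM in SCS, a log2 fold change of -2.56 ± 0.64 (edgeR adjusted p = 0.0216) that lost its call without JL drought library 1, JL drought library 3, SCS drought library 1 or SCS drought library 2 (adjusted p = 0.0555 to 0.0682). NIP2-2 (LOC8081289), of a subfamily that carries silicic acid in rice, went the other way with 241, 380 and 184 CPM in JL and 65.5, 81.6 and 34.0 CPM in SCS. Among 65 nitrate and peptide transporters 9 were called higher in JL and 5 in SCS, or 4 and 2 without SCS drought library 1. The 9 and 5 are 13.8% and 7.69% of the list, near the 11.2% and 7.55% of all tested genes. An NRT1/PTR FAMILY 8.1-like transporter (LOC110433327) had 18.2, 19.6 and 53.9 CPM in JL and 0.056, 0 and 0.0441 CPM in SCS, or 1198 counts against 2 over the groups. That is 946 times the scaled level, with an exact 95% interval of 261 to 7820 that covers counting error only. The gene was at 15.3 to 43.5 CPM in SCS control, far above SCS drought. Non-specific lipid-transfer protein 2 (LOC8061116) had 0.313, 2.31 and 0.659 CPM in JL and 100.4, 152 and 61.0 CPM in SCS. Of the 23 lipid carriers of its list 5 were called higher in SCS and 2 in JL, and the 5 became 2 without SCS drought library 1 or JL drought library 3 and 3 without SCS drought library 2.

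Regulators were called in both directions, at 12.2 to 23.7% of each list below, against 18.8% of all tested genes. MYBS2 (LOC8055635), a MYB factor that acts on sugar-regulated genes in rice, had 463.5, 552 and 496 CPM in JL and 41.4, 60.9 and 93.8 CPM in SCS, a log2 fold change of 2.95 ± 0.36 (edgeR adjusted p = 0.00159). It was among 8 of 72 MYB factors called higher in JL, with 4 higher in SCS. Of 59 bZIP and HD-Zip factors 10 were called higher in JL and 4 in SCS, of 96 auxin genes 11 and 6, of 21 gibberellin genes 2 and 1, and of 41 jasmonate genes 4 and 1. The shares called toward JL and SCS were 11.1% and 5.56% for MYB factors and 11.5% and 6.25% for auxin genes. They were 16.9% and 6.78% for bZIP and HD-Zip factors, against 11.2% and 7.55% of all tested genes. Gibberellin 20 oxidase 2 (LOC8063144), which makes precursors of active gibberellins, had 11.96, 6.76 and 137 CPM in JL and 0.056, 0.0507 and 0.177 CPM in SCS, far higher in JL drought library 3 than in the other libraries. In control this oxidase overlapped between cultivars, at 15.6 to 108.7 CPM in JL and 9.96 to 72.0 CPM in SCS. With library totals alone as the scaling, the split became 4 and 10 for MYB factors, 5 and 10 for bZIP and HD-Zip factors and 7 and 13 for auxin genes. It became 3 and 1, 6 and 3, and 7 and 2 without SCS drought library 1.

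Of 145 NB-LRR genes, the intracellular immune receptors of plants, 13 were called higher in JL and 5 in SCS, a split that became 7 and 10 with library totals alone, 5 and 2 without SCS drought library 1 and 23 and 5 without SCS drought library 3. RPM1 (LOC8066296), of that class, had 6.41, 5.90 and 10.4 CPM in JL and 0.392, 0.101 and 0.132 CPM in SCS, while its control levels overlapped between cultivars at 4.54 to 13.1 CPM. Calls higher in JL and in SCS were 6 and 1 of 66 flavonoid genes, 13 and 4 of 80 lignin and laccase genes, 5 and 1 of 36 class III peroxidases and 9 and 6 of 111 cytochromes P450. The called shares were 12.4% for NB-LRR, 10.6% for flavonoid and 21.2% for lignin and laccase genes. They were 16.7% for peroxidases and 13.5% for cytochromes P450, against 18.8% of all tested genes. Without SCS drought library 1 the counts toward JL became 3 for flavonoid genes, 6 for lignin and laccase genes and 2 for peroxidases, and that toward SCS became 3 for cytochromes P450. Dirigent protein 10 (LOC8080616), whose family guides the coupling of lignin-type precursors, was among the lignin genes called higher in SCS. It had 0.0781, 0.171 and 0 CPM in JL and 79.5, 90.4 and 33.9 CPM in SCS, which is 838 times the scaled level with an exact 95% counting interval of 287 to 4066. Antioxidant enzymes had 6 and 7 of 37 called, which is 35.1% against 18.8% of all tested genes, or 4 and 4 without SCS drought library 1. Glutathione transferases had 3 and 3 of 59 called, which is 10.2%.

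Proteases had 20 members called higher in JL and 5 in SCS of 130, or 16 and 15 with library totals alone. The subtilisin-like protease SBT5.3 (LOC8071642) had 94.95, 57.3 and 214 CPM in JL and 1.34, 1.37 and 3.18 CPM in SCS, a log2 fold change of 5.95 ± 0.67 (edgeR adjusted p = 0.00138). Wall enzymes were split into 11 and 12 of 152. Among them glucan endo-1,3-beta-glucosidase 1 (LOC8080486), which cuts callose-type glucans, had 0.860, 1.63 and 0.805 CPM in JL and 683, 215 and 285 CPM in SCS. Sugar transporters were called 9 times toward JL and 2 times toward SCS of 52, F-box and BTB genes 28 and 13 of 332, histone and cell cycle genes 2 and 2 of 73, and transposon-derived genes 1 and 1 of 47. The called shares of the last 2 lists, 5.48% and 4.26%, lie below the 18.8% of all tested genes. Those of proteases, wall enzymes, sugar transporters and F-box and BTB genes were 19.2%, 15.1%, 21.2% and 12.3%. Without SCS drought library 1 the calls toward JL and SCS were 12 and 3 for proteases, 5 and 6 for wall enzymes, 5 and 0 for sugar transporters and 12 and 6 for F-box and BTB genes.

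The cultivars were also compared in control, with 6 other libraries. By the same test 5 genes were called there (0.024%), 2 higher in JL (0.00958%) and 3 in SCS (0.0144%), and 3008 genes (14.4%) had an unadjusted p below 0.05. This count depended on the tool: DESeq2 called 700 genes in control, and limma's voom with sample weights 6008. The control libraries of the cultivars did not overlap for 27.6% of tested genes, against 32.8% in drought. In photosystem genes the third control libraries lay between the others of the 2 cultivars, with a summed level of 71752 CPM in JL control 3 and 73661 CPM in SCS control 3, against 191180 to 194990 CPM in the other JL and 24356 to 34664 CPM in the other SCS control libraries. A low number of calls in control does therefore not show that the well-watered leaves were alike.

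**Figure D5:**
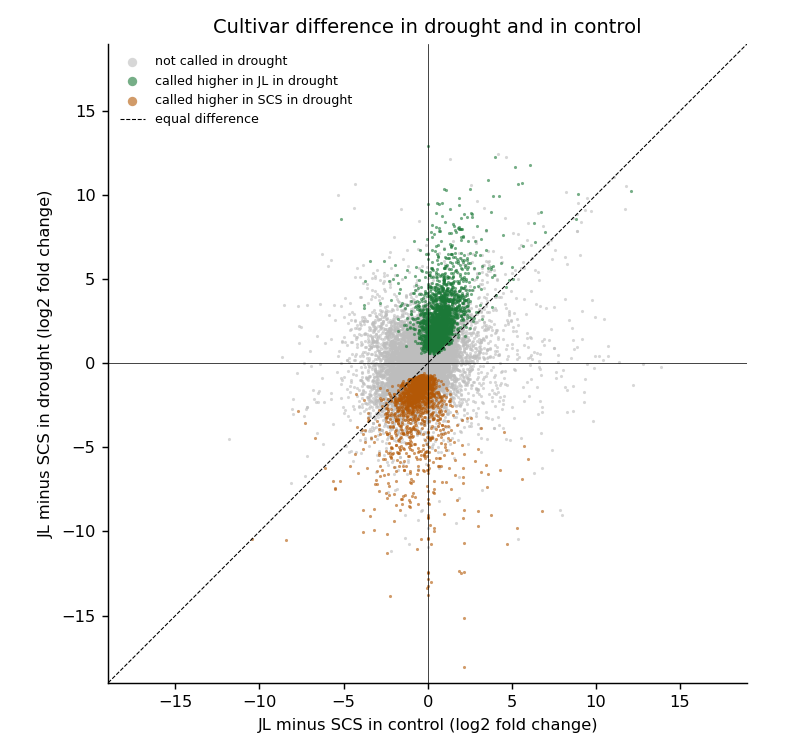
Each point is a tested gene, with the JL minus SCS log2 fold change in control across and in drought up, and a dashed line where both are equal. Genes called in drought (green and orange) lie mostly steeper than the dashed line, with medians of 2.32 in drought and 0.66 in control on the JL side.

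Genes called in drought mostly differed in the same direction in control but by less. Of the 2341 genes called higher in JL, 2071 (88.5%) had the same sign in control, and their median log2 fold change was 2.32 in drought and 0.66 in control. Of the 1575 called higher in SCS, 1249 (79.3%) had the same sign in control, with medians of -1.97 and -0.60. Over all tested genes the sign was shared by 65.9%, and the 2 differences correlated with Pearson's r = 0.32 and Spearman's rho = 0.41 across the 20873 genes, which are not independent replicates. The group that had moved from its own control was mostly SCS. Between control and drought the SCS mean moved more than the JL mean, on the log2(CPM + 0.5) scale, in 2175 (92.9%) of the genes called higher in JL and in 1333 (84.6%) of those called higher in SCS, against 69.8% of all tested genes. Since the choice of the genes used the drought libraries, these shares are given as a description.

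The difference between the cultivar differences was tested gene by gene. It was called for 107 genes (0.513%), 68 with a more positive JL minus SCS difference in drought (0.326%) and 39 with a more negative one (0.187%), and 105 of them were among the 3916 genes. The transporter named arsB (LOC8071382) had 202, 344 and 324 CPM in JL drought and 7.11, 7.55 and 10.5 CPM in SCS drought, but 161 to 171 CPM in JL control and 152 to 220 CPM in SCS control. Its cultivar difference was 5.11 ± 0.31 in drought and -0.16 in control on the log2 scale, and the difference between them had an edgeR adjusted p of 0.0012. RADIALIS-like 3 (LOC8064723), a MYB-related factor, had 138, 60.8 and 187 CPM in JL drought and 0.840, 0.203 and 0.574 CPM in SCS drought, and 69.5 to 184 CPM in all control libraries. The lectin R40C1 (LOC8084563) had 8.99, 2.23 and 10.2 CPM in JL drought and 3200, 1939 and 816 CPM in SCS drought, and 5.71 to 30.2 CPM in all control libraries. In the first 2 genes SCS drought alone was low, and in the lectin SCS drought alone was high. Leaving out 1 library moved the count to 446 without SCS drought library 3 and 240 without JL drought library 2, and to between 8 and 36 without any other library, lowest without SCS control library 3.

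A set of 3 genes was called in both drought and control, all higher in SCS. PIF1 helicase (LOC8155712) on chromosome 2 had 0 counts in every JL library and 10.2, 11.9 and 9.22 CPM in SCS drought, at least 132-fold higher. LOC8055583, uncharacterized and also on chromosome 2, had 0 counts in JL drought and 10.97, 13.0 and 8.96 CPM in SCS drought. Putative protease Do-like 14 (LOC8057143) on chromosome 5 had 0.860, 0.599 and 1.02 CPM in JL drought and 13.9, 20.0 and 12.4 CPM in SCS drought, with log2 fold changes of -4.20 ± 0.45 in drought and -3.84 in control (edgeR adjusted p = 0.034 in control). For the first 2 of these genes the SCS drought and SCS control libraries overlapped. Over the genome, the share of genes called in drought was 16.8 to 19.5% on each of the 10 chromosomes. Zero counts in all 3 JL drought libraries were found for 55 called genes, and in all 3 SCS drought libraries for 39. With one reference for both cultivars, a gene that is lost or altered in sequence and a gene that is silent cannot be told apart.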

How the data were processed

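Strand-specific libraries were sequenced on an Illumina NovaSeq instrument, per the labels' protocols. The authors deposited raw gene counts and FPKM values per gene. HISAT2 2.0.4, STAR and StringTie 1.3.3b are named in the submitters' processing notes; which tool did what, the genome build and the strand setting of the counting were not given in the sources used here, so overlapping and antisense genes may share reads. Of the gene IDs, 32940 matched RefSeq's NCBIv3 annotation, and 946 loci were outside the reference.

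Counts of all 12 libraries were fitted with edgeR 4.0.16 (R 4.3.3; limma 3.58.1, DESeq2 1.42.0), with TMM scaling, filterByExpr (20873 of 33897 genes kept) and the quasi-likelihood test. The pooled coefficient of variation was 63.3%. The SE is the fold change divided by the square root of F. In 1 set of simulated data with these spreads, only 50 of the 20873 genes were changed at each fold. The drought comparison recovered 0% of 2-fold, 12% of 4-fold, 36% of 8-fold and 48% of 16-fold changes there, with 0 false calls. Far fewer genes were changed than were called in the data, which makes the adjusted p stricter. These shares are therefore not the recovery or the false-call rate of the reported test.

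Beside called members of lists chosen after their values were seen, a rule chose 120 genes. It took the 10 most different in each direction at 10 CPM or more without overlap and the 5 most abundant per direction. It also took up to 2 per list by adjusted p, those called in both conditions, and up to 5 per direction from the difference of differences. The Results describe 57 of the 120. Those left out include non-specific lipid-transfer protein 1 (LOC8067184), malate synthase (LOC8073689) and an expansin-B3 (LOC8058097). Each lost its call without SCS drought library 1 (edgeR adjusted p = 0.0887, 0.111 and 0.0873). Lists (46, matched on gene descriptions) and members were chosen with earlier results of these data known. The labels do not say whether replicate numbers pair the samples. With group means removed, same-numbered drought libraries of the cultivars correlated at 0.0287, 0.383 and -0.0374. Differently numbered ones correlated at -0.433 to 0.429. With 3 libraries a group these values cannot show whether the numbers pair the samples.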

Additional observations from a re-analysis of the deposited data

Results flagged for a closer look

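For 26 of the genes named in the report, the cultivar difference (JL minus SCS) differed between drought and control in edgeR's test of the difference of differences, at an adjusted p below 0.05. Where the drought difference was the more positive, the values on the log2 scale were 9.42 for NAD(P)H-dependent oxidoreductase 1 (LOC8083891), 8.69 for the NRT1/PTR FAMILY 8.1-like transporter, 8.0 for the protease SAG39 and 7.23 for RADIALIS-like 3. They were 5.62 for a polyamine transporter (LOC8080485), 5.49 for chloroplastic aldolase, 5.27 for the transporter arsB, 5.17 for proline transporter 1 and 4.94 for the resistance protein RPM1 (LOC8066296). Smaller positive values were 4.50 for the protease SBT5.3 (LOC8071642), 4.28 for an anthocyanidin glucosyltransferase (LOC8068960), 4.01 for berberine bridge enzyme-like 22 (LOC8061940) and 3.77 for 4-coumarate-CoA ligase-like 3 (LOC8055123).

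Where it was the more negative, the values were -11.6 for PHV A1, -10.2 for late embryogenesis abundant protein 1, -10.2 for lipid-transfer protein 2 and -10.1 for the second NADP-dependent malic enzyme. They were -9.84 for the lectin R40C1, -7.38 for glucan endo-1,3-beta-glucosidase 1 (LOC8080486), -5.77 for the release factor subunit and -5.09 for cytosolic phosphoglycerate kinase (LOC110431217). The rest were -4.68 for HSP70 protein 8, -4.64 for a small heat shock protein (LOC8073756), -4.03 for sucrose synthase 4, -3.24 for the SUI1 homolog and -2.30 for ornithine aminotransferase.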

How the results depend on the processing

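The 3916 genes called in drought became 6055 with DESeq2 and 986 with the compared libraries alone. Without 1 library they ranged from 1864 to 3726. Of the 120 genes chosen by the rule none changed direction under the alternatives that kept them (the stricter filter kept 103), 103 kept their call without any 1 drought library, and 37 lost it with the compared libraries alone. Of 16 called genes named outside the rule, checked after seeing the data, 0 changed direction and 9 lost their call under at least 1 alternative; of 5 named without a call, 1 changed direction and 2 others gained a call. The 5 genes called in control became 700 with DESeq2, 14 with the compared libraries alone, 12 and 13 with limma on FPKM (pseudocounts 0.1 and 1) and 6008 with voom weights, and ranged from 0 to 7 without 1 library. The 107 genes of the difference of differences became 1357 with DESeq2, 257 and 263 on FPKM, 212 with the stricter filter and 1152 with voom weights, and ranged from 8 to 446 without 1 library. With the replicate number as a block, 2748, 0 and 17 genes were called in the 3 comparisons (2390 in control at an unadjusted p below 0.05). Whether the numbers pair the samples is not known. The difference in the share of the 100 most abundant genes ranged from 14.7 to 18.2 percentage points without 1 library.

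List medians, less that of all genes, changed sign without 1 library for 7 lists, with ranges over the drought libraries of -0.55 to 0.15 for abscisic acid, -0.0148 to 1.08 for aquaporins, -0.21 to 0.554 for sugar transport, -0.237 to 0.665 for lignin and laccase, -0.88 to 1.12 for WRKY factors, -0.688 to 0.699 for jasmonate and -0.171 to 0.438 for cytochromes P450. Abscisic acid changed sign without SCS drought library 3, aquaporins without JL drought library 3 and the others without JL drought library 1. Medians within 0.3 of all genes were not followed. Of the 46 lists, 31 had a count of calls, of 4 or more, that moved by over 1.5 times without SCS drought library 1, and 9 to 18 without another single drought library. The causes were not tested. Library totals as the scaling, DESeq2 counts for lists, and bounds and the 100-gene share without each library were chosen after seeing the data.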
